A study of Mus musculus with 6 samples.

Results

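Intergenic cytosines far from genes were taken as the autosomal CpG sites that lay outside every GENCODE M21 gene record of the mouse genome (mm10, also called GRCm38) and over 20 kb from the nearest one. This rule uses position only. It gave 55131 of the 890041 sites measured by reduced representation bisulfite sequencing (RRBS), or 6.19%. A site is a cytosine on 1 strand, and the 55131 sites belonged to 50664 CpG positions, of which 4467 were covered on both strands. In the reference sequence used here, 2 of the 55131 sites were not CpGs. The median distance to the nearest gene record was 43956 bp and the largest was 612731 bp, and 9249 sites (16.8%) lay over 100 kb away. They are called far intergenic sites below, and the 188824 autosomal sites outside gene records but within 20 kb of one are called near intergenic sites. A further 622896 autosomal sites lay inside gene records.

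The tissue was micro-dissected dentate gyrus, the part of the hippocampus that keeps making granule neurons in adult mice. Its donors were female C57BL/6JRj mice aged 4.5 months. 3 had been housed in standard cages (STD) and 3 in an enriched environment (ENR, housing that offers more stimulation than a standard cage), and each library came from 1 mouse. The tissue holds many cell types, so a percentage between 0 and 100 can come from cells that differ or from alleles that differ within cells, and these cannot be told apart here.

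DNA methylation at CpGs is written by DNA methyltransferases and is the usual state of intergenic DNA and of transposable elements in mammalian somatic cells. Short stretches that are rich in CpGs are the main exception and stay unmethylated, most often at promoters. RRBS reads fragments cut at CCGG by a methylation-insensitive enzyme, so it samples CpG-rich DNA and reaches intergenic DNA mainly where such fragments happen to lie.

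The sequences of 7 far intergenic clusters are shown because their letters carry what the values below describe. A cluster is a run of at least 5 sites with neighbours at most 200 bp apart, and it is named here by its nearest gene record, which does not mean that it acts on that gene. All are reference sequence of the plus strand of mm10, with CpGs in capitals, and at most 300 bases of each cluster are given. The first 3 come from large unmethylated clusters that differ in how many CpGs they hold.
Rph3al, chr11:75966484-75966783: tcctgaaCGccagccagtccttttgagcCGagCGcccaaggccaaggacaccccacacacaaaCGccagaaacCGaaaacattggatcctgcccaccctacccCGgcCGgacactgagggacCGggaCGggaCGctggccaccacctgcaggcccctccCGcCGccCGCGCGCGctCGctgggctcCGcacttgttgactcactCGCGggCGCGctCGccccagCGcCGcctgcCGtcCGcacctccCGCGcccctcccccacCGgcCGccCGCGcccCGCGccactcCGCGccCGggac
Foxk1, chr5:142367637-142367936: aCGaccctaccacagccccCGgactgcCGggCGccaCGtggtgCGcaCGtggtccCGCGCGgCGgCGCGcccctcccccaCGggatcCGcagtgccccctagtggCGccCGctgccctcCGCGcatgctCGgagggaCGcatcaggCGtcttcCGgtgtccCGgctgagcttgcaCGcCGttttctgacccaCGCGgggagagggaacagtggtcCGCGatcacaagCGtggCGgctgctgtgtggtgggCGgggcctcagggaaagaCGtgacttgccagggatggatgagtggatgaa
Gm5218, chr15:81522764-81523063: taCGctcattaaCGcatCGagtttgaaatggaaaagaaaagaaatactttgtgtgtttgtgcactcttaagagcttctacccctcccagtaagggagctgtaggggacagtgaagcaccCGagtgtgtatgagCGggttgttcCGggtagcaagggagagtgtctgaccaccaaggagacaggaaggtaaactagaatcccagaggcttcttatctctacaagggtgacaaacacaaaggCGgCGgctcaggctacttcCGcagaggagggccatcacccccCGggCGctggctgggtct
The next is from one of the 2 unmethylated clusters farthest from any gene record, and CpGs are sparse in it except near its end.
Fign, chr2:63702488-63702602: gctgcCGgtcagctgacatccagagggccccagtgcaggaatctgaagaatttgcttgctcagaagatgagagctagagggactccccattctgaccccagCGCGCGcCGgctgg
The following pair comes from the 2 methylated clusters with the most sites, both in soft-masked repeats, and is shown for the letters the pair shares.
Igbp1b, chr6:138685812-138685952: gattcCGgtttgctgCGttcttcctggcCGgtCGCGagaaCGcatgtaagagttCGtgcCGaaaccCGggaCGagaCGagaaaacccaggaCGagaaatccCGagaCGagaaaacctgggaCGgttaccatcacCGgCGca
Gm23829, chr1:47787089-47787388: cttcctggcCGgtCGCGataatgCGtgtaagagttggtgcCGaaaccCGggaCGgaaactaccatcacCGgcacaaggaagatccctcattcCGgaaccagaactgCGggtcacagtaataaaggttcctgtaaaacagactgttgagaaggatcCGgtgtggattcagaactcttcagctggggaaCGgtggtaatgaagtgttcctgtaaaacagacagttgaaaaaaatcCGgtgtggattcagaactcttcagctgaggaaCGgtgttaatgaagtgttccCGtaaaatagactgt
The last is from a cluster of intermediate methylation whose single sites ranged from near 0 to near 100 percent.
Gm45895, chr8:96079661-96079801: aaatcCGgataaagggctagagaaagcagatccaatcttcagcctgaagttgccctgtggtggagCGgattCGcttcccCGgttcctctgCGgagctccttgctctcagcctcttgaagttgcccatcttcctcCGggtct

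The Rph3al sequence held 38 CpGs in 300 bases and the Foxk1 sequence 34, against 11 in the Gm5218 sequence. Measured sites in these stretches numbered 10, 32 and 12, so most CpGs marked in the Rph3al sequence had no methylation value. The Igbp1b sequence held 17 CpGs in 141 bases, so a high CpG count was found in methylated as well as unmethylated clusters. The Igbp1b and Gm23829 sequences shared a run of 18 bases, cttcctggcCGgtCGCGa, and 16 words of 12 bases, both strands counted. No other pair among the 10 sequences extracted for named clusters (44 other pairs) shared more than 5 such words.

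Far intergenic DNA was mostly methylated. Averaged over the 6 libraries, 29652 sites (53.8%) were at 80% or more, 6808 (12.3%) were under 10%, and 33.9% lay between. Of the near intergenic sites, 58.3% were under 10% and 19.4% at 80% or more. A value of 0 in all 6 libraries was found at 1345 far sites (2.44%) against 25.6% of near sites, and a value of 100 in all 6 at 2144 far sites (3.89%).

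Mean methylation of the far sites was 67.4%, 67.3% and 64.1% in STD replicates 1 to 3 and 67.3%, 66.8% and 61.5% in ENR replicates 1 to 3. Near sites were at 28.9%, 28.8% and 27.0% in the same STD libraries and at 28.8%, 28.6% and 25.7% in the ENR ones. Within each library the far mean was the higher one, by 37.7 ± 1.08 percentage points (SD, n = 6 libraries, two-sided exact sign-flip test, p = 0.031, the smallest that 6 libraries allow). 21 comparisons of this kind were made within libraries, including that of cluster shares below, and the adjusted p of each that reached this minimum was 0.035 (Benjamini-Hochberg over exact p-values).

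Replicate 3 of each group stood apart before any comparison was made. Its mean was the lowest of its group, and it had more sites at exactly 0% and exactly 100%, although fewer at 80% or more (51.3% in STD replicate 3 and 48.4% in ENR replicate 3, against 54.1% to 55.3% in the others). Sites at exactly 100% made up 31.2% of far sites in STD replicate 3 and 33.4% in ENR replicate 3, against 21.2% and 22.1% in the other STD libraries and 25.9% and 30.7% in the other ENR libraries. Sites at exactly 0% made up 11.1% and 13.0% in the libraries numbered 3 and between 7.05% and 10.4% in the others. The deposited values are percentages without read numbers, so the depth behind each site is unknown beyond the authors' minimum of 10 reads, and whether depth takes part in this was not tested.

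Methylation was compared next with the density of measured sites, counted as the other sites of the table within 200 bp. The median density was 3 for far sites, 9 for near sites and 15 inside gene records. Far sites with 0 to 4 neighbours numbered 34758 (63.0%). They had methylation of 72.6%, 72.6% and 68.8% in STD and 72.5%, 72.0% and 65.6% in ENR. The 5269 far sites with no neighbour at all were the most methylated, with a mean of 74.7% over the libraries.

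Methylation declined with each step of density. With 5 to 9 neighbours (14068 sites) the 6 library means lay between 60.3% and 64.8%. With 10 to 19 neighbours (5074 sites) they lay between 48.2% and 51.3%. With 20 to 39 neighbours (1196 sites) their mean was 14.7%, with 14.4% the lowest, and the 35 sites with 40 or more neighbours had means from 1.18% to 2.72%. The ranges of neighbouring classes did not overlap. Dense sites (20 or more neighbours) were 56.3 ± 2.74 percentage points lower than sparse ones (0 to 4 neighbours) within libraries (SD, n = 6 libraries, two-sided exact sign-flip test, p = 0.031).

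The decline was not even across the scale. The mean over libraries was 50.8% at 10 to 14 neighbours and 49.4% at 15 to 19, and then 21.6% at 20 to 24 and 14.1% at 25 to 29. At 30 to 39 neighbours it was 1.79%, with 97.9% of the 280 sites under 10%. Near intergenic sites reached low levels at much lower density, with 5.93% at 15 to 19 neighbours.

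**Figure D1:**
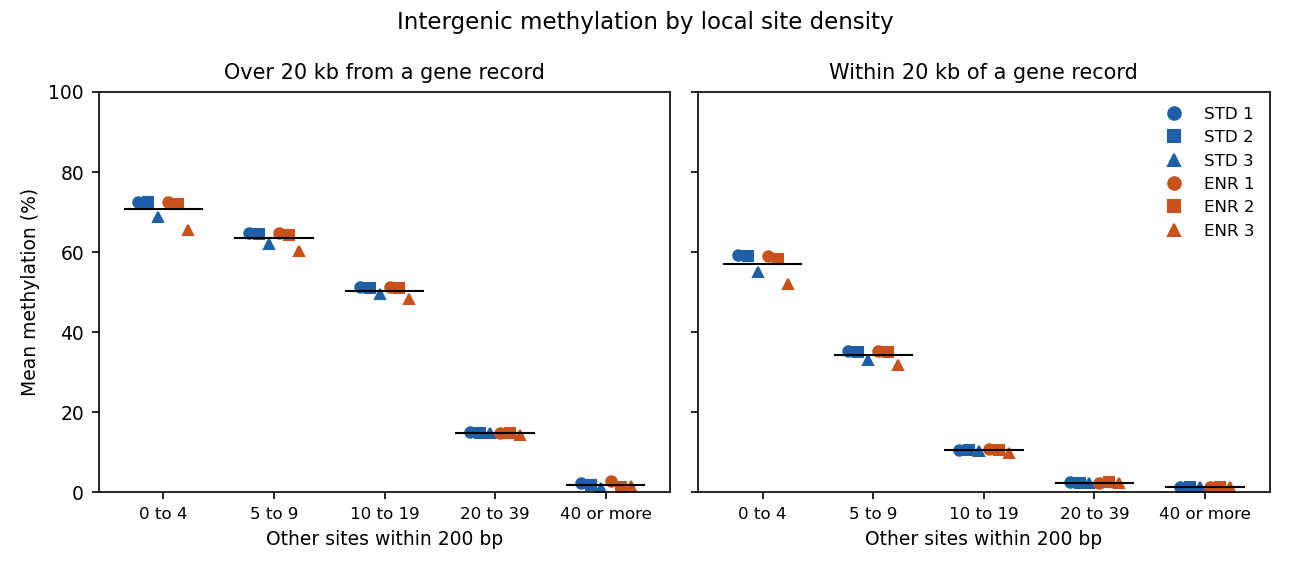
Mean methylation in percent of far (left) and near (right) intergenic sites by the number of other sites within 200 bp. Each point is 1 library (blue STD, orange ENR, shape by replicate number) and each black line is the mean of the 6 libraries. Far sites with 10 to 19 neighbours sat at 48.2% to 51.3%, while near sites of that density sat at 9.80% to 10.8%, and replicate 3 of each group was lowest at 0 to 4 neighbours.

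Far sites were thus compared with near sites of the same density. The difference within libraries was 13.6 ± 0.158 percentage points at 0 to 4 neighbours, 29.2 ± 0.400 at 5 to 9, 39.9 ± 0.881 at 10 to 19 and 12.3 ± 0.149 at 20 to 39 (SD, n = 6 libraries, exact sign-flip p = 0.031 for each). At 40 or more neighbours it was 0.561 ± 0.582 percentage points and 1 of 6 libraries went the other way (exact sign-flip p = 0.062). With near sites weighted to the density of far sites, the difference was 19.9 ± 0.158 percentage points (exact sign-flip p = 0.031).

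Repeats were looked at next, because 38.5% of far sites lay in bases that the reference sequence soft-masks as repeats, against 13.6% of near sites and 5.19% of sites inside gene records. Transposable elements make up most such bases in mammals. Masked far sites (21234) had methylation of 88.6%, 88.6% and 87.1% in STD and 88.6%, 88.4% and 85.8% in ENR. Unmasked far sites (33897) had 54.1%, 53.9% and 49.7% in STD and 53.9%, 53.3% and 46.3% in ENR. Masked sites were higher in every library, by 36.0 ± 2.02 percentage points (SD, n = 6 libraries, exact sign-flip p = 0.031), and 1.58% of them were under 10% against 19.1% of unmasked sites.

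Density went with methylation outside repeats and hardly at all within them. Masked far sites had mean methylation of 86.9% at 0 to 4 neighbours, 89.8% at 5 to 9, 88.9% at 10 to 19 and 85.8% at 20 to 39. Unmasked far sites fell from 60.3% to 45.7%, 28.4% and 3.74% over the same classes. The gap between masked and unmasked sites accordingly widened from 26.7 ± 2.31 to 82.1 ± 0.556 percentage points between the first and the last of these classes (SD, n = 6 libraries, exact sign-flip p = 0.031 for each class). The 35 densest far sites were all unmasked.

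The far sites remained above the near ones up to 39 neighbours when masked bases were left out, a comparison chosen after the masked sites had been seen. Unmasked far sites were 10.4 ± 0.517 percentage points higher than unmasked near sites at 0 to 4 neighbours, 20.1 ± 1.05 at 5 to 9, 21.1 ± 1.40 at 10 to 19 and 1.67 ± 0.122 at 20 to 39 (SD, n = 6 libraries, exact sign-flip p = 0.031 for each). At 40 or more neighbours the difference was 0.547 ± 0.580 percentage points (exact sign-flip p = 0.094). At matched density it was 13.5 ± 0.703 percentage points (exact sign-flip p = 0.031), against 19.9 with masked sites included.

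Distance from the nearest gene record gave a gradient that continued beyond 20 kb. Intergenic sites within 1 kb of a gene record had a mean of 7.95%, those at 15 to 20 kb 58.8% and those at 20 to 25 kb 58.7%, so the limit of 20 kb did not mark a step. Far sites at 25 to 50 kb had 62.6%, at 50 to 100 kb 67.0%, at 100 to 200 kb 76.0% and over 200 kb 83.2%. Over 200 kb the 6 libraries ranged from 80.2% to 84.4%, above all 6 libraries at 100 to 200 kb (72.3% to 77.4%).

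Sites with 10 to 19 neighbours went up with distance mainly beyond 100 kb. Near sites of that density had a mean of 46.7% at 15 to 20 kb. Far ones had means of 40.9% at 20 to 25 kb, 45.5% at 25 to 50 kb and 45.5% at 50 to 100 kb. Their means were 73.1% at 100 to 200 kb and 88.9% over 200 kb (282 sites). The share of far sites in masked bases rose with distance as well, from 29.2% at 20 to 25 kb to 69.0% over 200 kb. Among unmasked far sites alone the mean still went from 47.5% to 68.6% over the same distances, and masked sites stayed between 85.7% and 89.8%. These are descriptions over sites of the same libraries, and no test was made of the gradient.

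**Figure D2:**
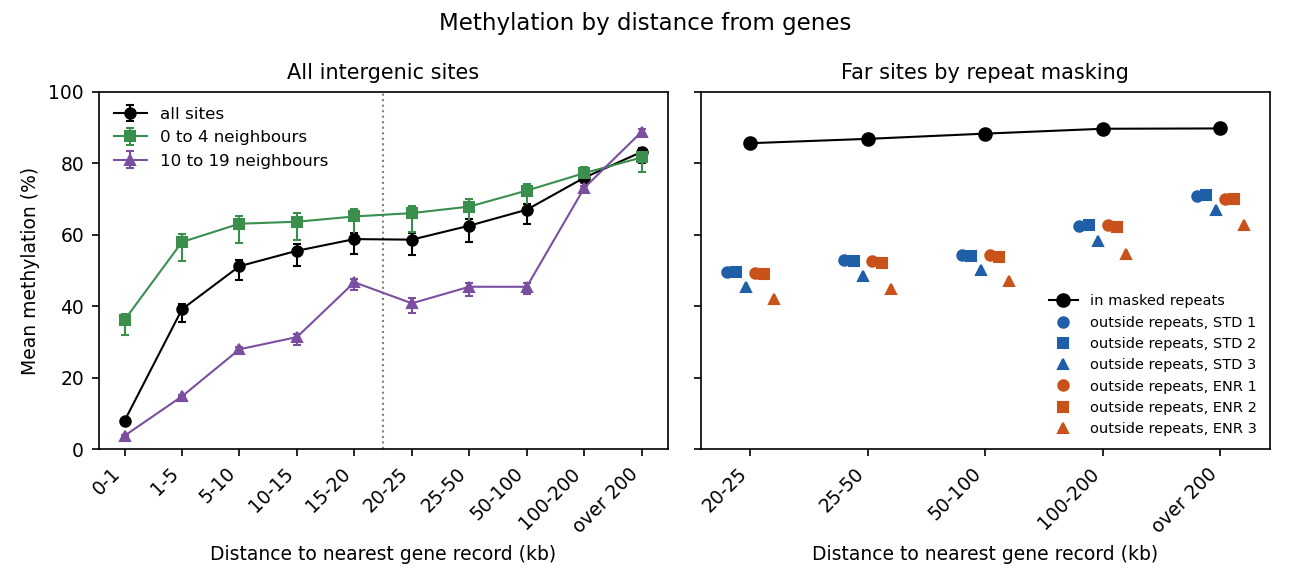
Left, mean methylation in percent of intergenic sites by distance in kb, with points at the mean of the 6 libraries and bars from the lowest to the highest library. The dotted line marks 20 kb. Right, far sites split by repeat masking, with 1 line for masked sites (mean of the 6 libraries) and 1 point per library for unmasked sites. Masked sites stayed at 85.7% to 89.8%, while unmasked sites went from 47.5% to 68.6%.

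The chromosomes differed in their far sites. Mean methylation over the libraries ranged from 56.5% on chromosome 11 and 56.7% on chromosome 5 to 74.1% on chromosomes 3 and 14. At 0 to 4 neighbours the range was narrower, from 63.3% on chromosome 11 to 76.6% on chromosome 3. Both strands of a CpG were read at 4467 far CpGs, and their median absolute difference was between 5.81 and 7.18 percentage points in the 6 libraries, with plus and minus strand means within 1 point of each other in each.

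About 49.5% of the far sites (27302) fell into 3467 far intergenic clusters, out of 42417 clusters on the autosomes. By their mean over the 6 libraries, 391 far clusters (11.3%) were unmethylated (under 10%), 1826 (52.7%) were methylated (80% or more) and 1250 (36.1%) lay between. Of 8276 near intergenic clusters, 41.5% were unmethylated. Counted in each library by itself, far clusters under 10% made up 10.8%, 11.3% and 14.2% in STD and 10.8%, 12.2% and 16.1% in ENR, against 40.9% to 45.1% of near clusters. The difference far minus near in this share was -29.7 percentage points (SD 0.472, lower in 6 of 6 libraries, two-sided exact sign-flip test, p = 0.031).

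The number of sites in a cluster went with its class. Of 2779 far clusters with 5 to 9 sites, 8.20% were unmethylated and 55.6% methylated. Of 598 clusters with 10 to 19 sites, 18.1% were unmethylated. Of 69 clusters with 20 to 29 sites, 34 were unmethylated and 18 methylated, and all 21 clusters with 30 or more sites were unmethylated. Near clusters reached 58.4% unmethylated at 10 to 19 sites and 86.1% at 20 to 29 sites.

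**Figure D3:**
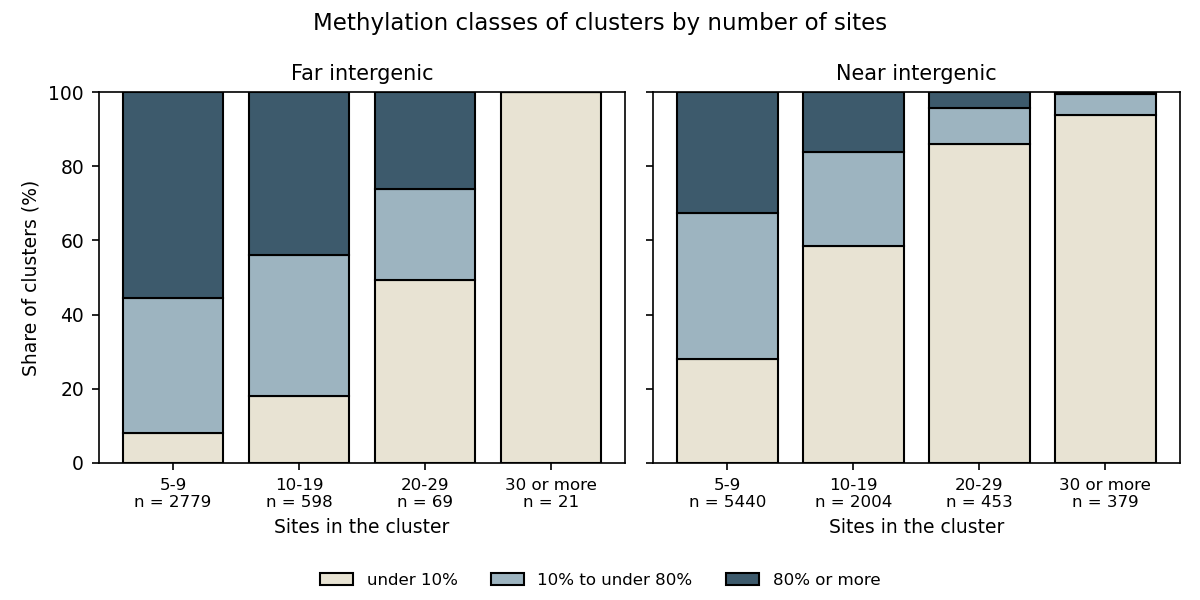
Share of clusters in percent with a mean under 10%, from 10% to under 80%, and at 80% or more, by the number of sites in the cluster, for far (left) and near (right) intergenic clusters. The number of clusters is given under each bar. The unmethylated share of far clusters went from 8.20% at 5 to 9 sites to 100% at 30 or more sites (21 clusters).

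The class of a cluster rests on all 6 libraries, so unmethylated far clusters were also chosen in 1 group of mice and read in the other. Of 390 clusters with a STD mean under 10%, 350 (89.7%) had an ENR mean under 10%, and 282 were under 10% in every ENR library. Their mean in the 3 ENR libraries was 5.49%, 5.50% and 4.19%, and the highest ENR mean of any of them was 21.8%. Chosen in ENR instead, 350 of 406 clusters (86.2%) were under 10% in STD. Of the 391, 253 were under 10% in each of the 6 libraries.

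Unmethylated and methylated far clusters had the same median number of CpGs but differed widely in their median share of masked bases. Intermediate clusters were close to unmethylated ones in that share. In the 500 bp around the cluster centre, the median number of CpGs was 15 in unmethylated, 11 in intermediate and 15 in methylated far clusters, and the median G and C content was 52.8%, 49.2% and 50.4%. The median share of masked bases was 8.4% in unmethylated clusters, 9.2% in intermediate ones and 81.0% in methylated ones. Over 50% of the window was masked in 73.7% of methylated clusters and in 0.256% of unmethylated ones. These are descriptions of classes that the methylation values defined.

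Windows with at least 50% G and C and a ratio of observed to expected CpGs of at least 0.6, the usual sequence criteria of a CpG island, were found at 79 unmethylated far clusters (20.2%), 40 intermediate ones (3.20%) and 261 methylated ones (14.3%). Of the unmethylated near clusters, 50.6% met these criteria, and their median number of CpGs was 25. Windows of other lengths were not tried. The unmethylated far clusters had a median length of 188 bp, shorter than the window. Their median distance to a gene record was 35991 bp, against 50136 bp for methylated far clusters, and 27 of the 391 lay over 100 kb away against 407 of the 1826.

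Some of the unmethylated far clusters lay at genes of another annotation. RefSeq, on the same build, has genes that GENCODE M21 lacks or draws shorter. Of the 391 unmethylated clusters, 49 (12.5%) lay within 1 kb of a RefSeq transcription start and 94 overlapped a RefSeq gene. For intermediate far clusters the share near a start was 3.92%, with 191 overlaps (15.3%). For methylated ones it was 1.10%, with 106 overlaps (5.81%). Among all far clusters 3.40% lay near a start and 11.3% overlapped a RefSeq gene. A far cluster is thus far from GENCODE M21 records, which is not the same as far from any transcript.

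Short recognition sequences were searched on both strands of the 500 bp windows. The enzyme site CCGG was found at 3466 of the 3467 far clusters. The Sp1 box GGGCGG was in 37.6% of unmethylated, 16.5% of intermediate and 14.6% of methylated far clusters, against 59.4% of unmethylated near clusters and 66.6% of unmethylated clusters inside gene records. Over all classes it was in 17.9% of far, 35.3% of near and 46.4% of gene record clusters. A match to the core motif of CTCF, a zinc finger protein that anchors chromatin loops, was in 17 unmethylated far clusters (4.35%), 4 intermediate ones (0.320%) and 2 methylated ones (0.110%), against 3.14% of unmethylated near clusters and 0.943% of unmethylated clusters inside gene records. Over all classes it was in 0.663% of far, 1.61% of near and 0.756% of gene record clusters.

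The other motifs were rare in far clusters. The cyclic AMP response element TGACGTCA was in 7 unmethylated (1.79%), 5 intermediate (0.400%) and 7 methylated clusters (0.383%). Its share over all classes was 0.548% of far, 1.12% of near and 1.17% of gene record clusters. The Nrf1 motif GCGCATGCG was in 3, 3 and 5 clusters of these far classes (0.767%, 0.240% and 0.274%). All classes together had it in 0.317% of far, 0.797% of near and 0.932% of gene record clusters. The ETS motif CCGGAAGT (which contains CCGG) was in 8, 38 and 20 (2.05%, 3.04% and 1.10%). All classes together had that motif in 1.90% of far, 3.21% of near and 3.64% of gene record clusters. No far cluster matched the motif of REST, against 0.0362% of near and 0.0920% of gene record clusters. A match is a string of letters and not a measured binding site, and the classes were set by methylation.

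The nearest gene record of the 391 unmethylated clusters was protein coding in 143 cases (36.6%), a processed pseudogene in 85 and a lincRNA in 73. The records nearest to all far clusters are not given here. These counts thus describe the unmethylated clusters and do not set them apart from other far clusters. They had 323 different nearest records, and 13 of these were nearest to 3 or more clusters, a limit chosen after the values were seen. Gm42670 was nearest to 6 clusters, at 27818 to 43495 bp. Uncx, which encodes a homeobox transcription factor, was nearest to 4, at 32585 to 52064 bp. Several records were tied at 3 clusters each, among them Gm47110, Trim27, Gm20544, Ccr1 and Gpx5. Of the tied records, the microRNA gene Mir148a had its 3 clusters at 95287 to 97737 bp. Shank2, whose product is a scaffold of the postsynaptic density, had its 3 at 22554 to 23613 bp. Runs of sites close to each other count as separate clusters, so such a number need not stand for separate regions.

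Single clusters show the range of these patterns. The cluster near Rph3al (chr11:75966088-75967178, 55 sites) lay 27659 bp from the GENCODE record of that gene, which encodes a Rab effector of regulated exocytosis. Its mean was 3.30%, 3.41% and 1.88% in STD and 3.59%, 2.81% and 2.61% in ENR. The groups overlapped, and no site had a mean over 12.5%. In RefSeq the cluster overlaps Rph3al itself, 436 bp from a transcription start.

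The cluster near Foxk1, a gene for a forkhead transcription factor, held 49 sites (chr5:142367418-142368154) and lay 33343 bp from it. Its mean was 1.37%, 2.16% and 0.353% in STD and 1.23%, 1.29% and 1.11% in ENR. Its window held 46 CpGs, a G and C content of 66.4% and 1 match to the CTCF motif. The RefSeq long noncoding RNA gene Gm31068 started 1748 bp away.

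A further large cluster lay 39574 bp from Insig1 (chr5:28118236-28118836, 48 sites), whose product holds back the processing of sterol regulatory factors. Its 6 library means lay between 2.55% and 3.20%, and both ends of that range were ENR libraries. It overlapped the RefSeq genes Gm35055 and Gm35223.

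The cluster 22965 bp from the processed pseudogene Gm5218 (chr15:81522510-81523316, 50 sites) had a mean of 1.29%, 1.19% and 1.84% in STD and 1.48%, 1.26% and 2.40% in ENR. Its ratio of observed to expected CpGs was 0.559, below the island limit of the criteria above, and no RefSeq gene overlapped it. The 4 clusters just described thus ranged from 0.353% to 3.59% over all libraries, although their windows held between 22 and 60 CpGs.

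The 2 unmethylated clusters farthest from a gene record were less even. The cluster 327798 bp from Pard3, a gene of cell polarity (chr8:127940084-127940210, 6 sites), had a mean of 16.9%, 5.04% and 0.676% in STD and 12.3%, 3.57% and 3.06% in ENR. At its last site the value was 28.9% in STD replicate 1, 16.7% in ENR replicate 1 and 10.7% in ENR replicate 2, and at most 4.05% in the other libraries. The cluster 268910 bp from Fign, which encodes a microtubule-severing enzyme (chr2:63702493-63702597, 5 sites), had a mean of 2.79%, 5.35% and 1.74% in STD and 11.6%, 7.20% and 4.29% in ENR. Neither met the island criteria, with ratios of observed to expected CpGs of 0.231 and 0.323.

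The methylated clusters with the most sites were nearly uniform. The cluster 27273 bp from Igbp1b (chr6:138685817-138685947, 28 sites) had a mean of 98.2%, 97.9% and 98.3% in STD and 97.6%, 96.6% and 99.1% in ENR. The cluster 35507 bp from Gm23829 (chr1:47787075-47787401, 27 sites) had 95.5%, 94.6% and 94.3% in STD and 93.7%, 96.1% and 98.6% in ENR. Of their windows, 95.4% and 96.6% was masked, and these are the clusters whose sequences share the run of 18 bases given above.

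2 intermediate clusters were named because their means varied least between libraries. The cluster 20225 bp from Gm29129 (chr7:36548149-36548518, 10 sites) had a mean of 34.4%, 34.3% and 31.1% in STD and 33.7%, 34.3% and 33.6% in ENR. Its single sites did not share that stability, since the site 99 bp from the first one was at 0% in STD replicate 2 and 84.6% in STD replicate 3. The cluster 145624 bp from Gm45895 (chr8:96079666-96079796, 10 sites) had 76.2%, 76.2% and 72.4% in STD and 76.0%, 70.7% and 73.3% in ENR. At its first CpG the plus strand was at 75.0% to 88.1% and the minus strand at 0% to 12.9%, while all other sites but 1 had means of at least 69.9%.

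**Figure D4:**
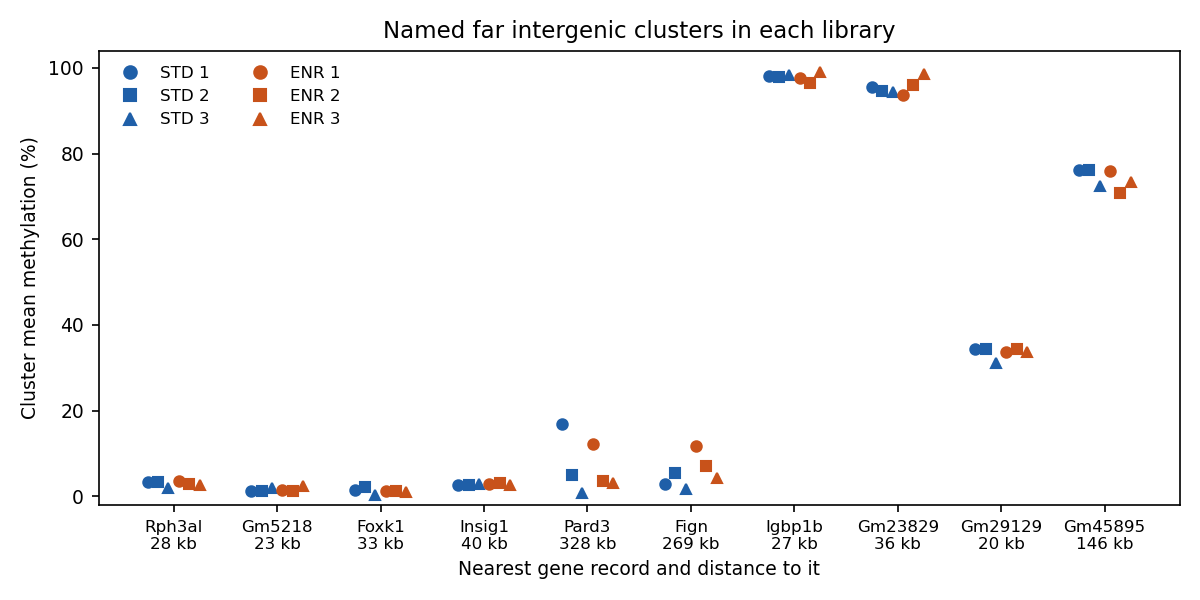
Mean methylation in percent of the 10 named far intergenic clusters in each library (blue STD, orange ENR, shape by replicate number), with the nearest gene record and the distance to it on the axis. The first 6 clusters are unmethylated, the next 2 methylated and the last 2 intermediate. The cluster near Pard3 spread from 0.676% to 16.9%, the widest of the 10.

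Intermediate means did not always stand for intermediate sites. The median SD among the sites of an intermediate far cluster was 14.2 percentage points. Of the 1250 intermediate clusters, 102 (8.16%) held both a site under 20% and a site at 80% or more.

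The study asked whether enriched housing changes methylation, and the far sites were compared between the groups for that question. Their mean was 66.2% ± 1.86 in STD and 65.2% ± 3.20 in ENR (SD, n = 3 mice each). ENR minus STD was thus -1.05 percentage points, less than the spread between mice in each group (exact permutation p = 0.6, two-sided, with 0.1 the smallest p that 3 against 3 allows). The difference was -0.487, -0.546 and -2.13 percentage points without STD replicate 1, 2 or 3, and -2.09, -1.86 and 0.789 without ENR replicate 1, 2 or 3. Without replicate 3 of both groups it was -0.283. In the 5 density classes the difference lay between -1.31 and 0.137 percentage points, with exact permutation p-values of 0.5 to 0.8 before and 0.8 after adjustment.

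The libraries numbered 3 stood apart chiefly at sparse sites. At 0 to 4 neighbours STD replicate 3 differed by -3.84 percentage points from the mean of the other STD libraries and ENR replicate 3 by -6.65 from the other ENR libraries. At 20 to 39 neighbours these differences were -0.136 and -0.372 percentage points. Between the other ENR and STD libraries the difference at 0 to 4 neighbours was -0.379 percentage points.

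The housing difference was compared between far and near sites by the difference far minus near in each library. ENR minus STD of that quantity was -0.507 percentage points (exact permutation p = 0.5), 0.335 without ENR replicate 3 and -0.116 without replicate 3 of both groups. The share of far clusters under 10% was 12.1% ± 1.82 in STD and 13.0% ± 2.71 in ENR (SD, n = 3 mice each, exact permutation p = 0.6), and this difference of 0.923 percentage points became -0.596 without ENR replicate 3 and 0.447 without replicate 3 of both groups. The mean of the 391 unmethylated clusters was 5.16%, 4.94% and 4.13% in STD and 5.14%, 4.98% and 3.74% in ENR, and the groups overlapped.

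Single sites and clusters were tested with limma on percentages over the whole table, with adjusted p-values under 0.05 and a difference over 25 percentage points as the call. 0 of 51642 far sites that varied between libraries were called, as were 0 of all 615152 (0%). The lowest adjusted p was 0.852 (limma, Benjamini-Hochberg). At an unadjusted limma p under 0.05 there were 1673 far sites (3.24%), against 2.68% of all sites tested. 0 of 3467 far clusters were called, as were 0 of the 42332 autosomal clusters tested (0%), with a lowest adjusted limma p of 0.998. At an unadjusted limma p under 0.05 there were 116 far clusters (3.35%), against 4.04% of all clusters tested. Leaving out the variance trend gave 2503 far sites at that unadjusted p (4.85%, against 3.91% of all sites tested). It gave 178 far clusters (5.13%, against 3.94% of all clusters tested). The lowest adjusted limma p of that fit was 0.114 among far clusters and 0.045 among all clusters. No cluster also passed the limit of 25 percentage points, so there were still 0 calls.

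Differences over 25 percentage points between group means were counted without a test. They were found at 1978 far sites, of which 1330 (2.41% of far sites) were lower in ENR and 648 (1.18%) were higher. Over the whole table these shares were 1.23% and 0.706%. Among sites whose overall mean left room for such a difference, 8.87% of far sites were over the limit, against 9.01% of all such sites. Sites whose groups also did not overlap numbered 563 lower (1.02%) and 287 higher (0.521%) in ENR, against 0.516% and 0.294% of the whole table.

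The balance of lower and higher sites moved with each library left out. Of the 1978 far sites, 67.2% were lower in ENR. The share was 56.3%, 55.4% and 77.5% without STD replicate 1, 2 or 3 and 75.7%, 75.0% and 42.5% without ENR replicate 1, 2 or 3. Without replicate 3 of both groups it was 56.5%. Among far sites with room for such a difference, 9.95% were over the limit at 0 to 4 neighbours, 6.83% at 5 to 9 and 4.94% at 10 to 19, and 46 sites with 20 to 39 neighbours had room, of which 0 were over it. These shares were not tested against each other. Among clusters, 4 far ones (0.115%) differed by over 25 percentage points against 0.125% of all clusters.

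The far clusters with separated groups and the lowest unadjusted limma p in each direction were 37011 bp from A630050E04Rik and 22415 bp from Srp9 (lower in ENR), and 25680 bp from Dhx8 and 41264 bp from Rny3 (higher in ENR). Srp9 encodes a subunit of the signal recognition particle, Dhx8 a helicase of splicing, and Rny3 is a small Y RNA. The Srp9 cluster (chr1:182102125-182102322, 9 sites) had a mean of 82.5%, 88.2% and 85.9% in STD and 69.2%, 64.8% and 70.8% in ENR. Its difference of -17.3 percentage points had an adjusted limma p of 0.998, like those of the other 3.

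The A630050E04Rik cluster (chr2:74063856-74063913, 6 sites) had a mean of 9.89%, 14.8% and 9.05% in STD and 2.23%, 2.06% and 2.71% in ENR. The Dhx8 cluster (chr11:101707039-101707239, 6 sites) had 87.7%, 88.3% and 86.5% in STD and 94.7%, 96.4% and 95.8% in ENR. The Rny3 cluster (chr6:47740286-47740360, 12 sites) had 0.397%, 0% and 0% in STD and 3.97%, 1.38% and 3.32% in ENR. The groups did not overlap in any of them, which is what they were chosen for.

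Single far sites were named by the same rule with a difference over 25 percentage points. A site 30101 bp from AC122818.2 was at 100% in each STD library and at 56.2%, 35.0% and 46.2% in ENR, and the 2 other sites of its run differed by -52.5 percentage points on average. A site 20349 bp from Bcas1, a gene of myelinating oligodendrocytes, was at 100% in each STD library and at 72.2%, 70.3% and 66.7% in ENR. The 4 other sites of its run differed by 5.94 percentage points, in the other direction.

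2 named sites were higher in ENR. A site 22546 bp from Sema6d, which encodes an axon guidance protein, was at 42.5%, 51.5% and 48.5% in STD and at 100% in each ENR library, and the 5 other sites of its run differed by -7.06 percentage points. A site 37213 bp from Plscr4, a phospholipid scramblase gene, was at 72.8%, 64.8% and 70.2% in STD and at 99.1%, 100% and 100% in ENR, and the single other site of its run differed by 5.85. The adjusted limma p of each of the 4 sites was 0.852.

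**Figure D5:**
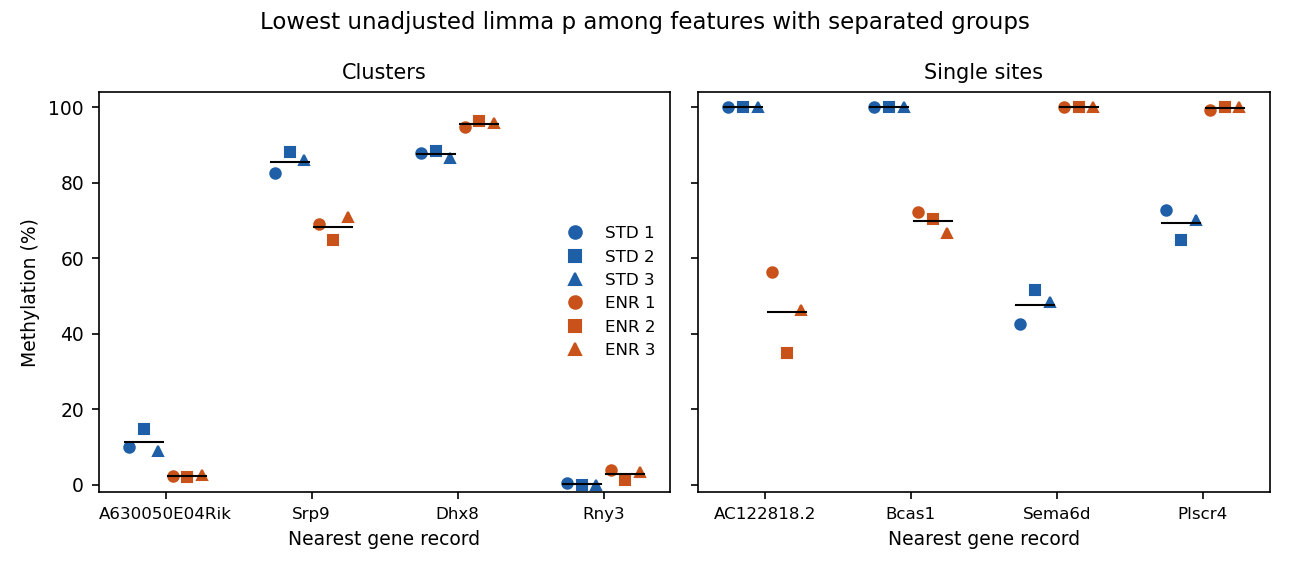
Methylation in percent of the 4 named far clusters (left) and 4 named far sites (right) in each library (blue STD, orange ENR, shape by replicate number), with the group mean as a black line. They were chosen for groups that do not overlap, and none passed the adjusted limma test. The cluster near Srp9 lay at 82.5% to 88.2% in STD and 64.8% to 70.8% in ENR.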

How the data were processed

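RRBS libraries of the dentate gyrus of 3 STD and 3 ENR mice were used. Per the submitters' processing notes, reads were trimmed (Trim Galore 0.4.0, cutadapt 1.8.1), aligned to mm10 (Bismark 0.16.1) and filtered (methylKit 1.5.2). The authors kept cytosines with at least 10 reads, dropped the most deeply covered ones, and deposited the percent of methylated reads per cytosine and library. Without read numbers the study's own test could not be run, no interval is given, and each site weighs the same, so values of thinly read sites move in coarse steps. The distance to gene records used GENCODE M21 on the same build. Repeat masking and letters came from GRCm38 RefSeq sequence, and RefSeq genes from its annotation.

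The groups were compared on 1 value per library by exact permutation (two-sided, 20 regroupings), and differences within libraries with exact sign-flip tests. Sites and clusters were tested with limma 3.58.1 (R 4.3.3, variance trend) over the whole table and adjusted by Benjamini-Hochberg. The procedure was tested on simulated data. The shifts added there were all larger than the limit of 25 percentage points, so that test does not show whether differences near the limit would be called. Groups came from the labels. The named clusters were the 4 unmethylated ones with most sites, the 2 farthest from genes, the 2 methylated ones with most sites, the 2 intermediate ones of at least 10 sites that varied least, and the lowest limma p-values among separated groups (2 per direction, for sites with a difference over 25 points and at most 1 per cluster). The regions of 1 chromosome were counted but are not named, so these rankings leave them out. The unmethylated far cluster with the most sites (58) was among those left out. The members, lists and limits were chosen with earlier results of these data known. Alternatives covered distance, density window, cluster limits, strands, gene records, scale and normalization, each library left out and the replicate number as a block.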

Additional observations from a re-analysis of the deposited data

How the results depend on the processing

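Of 172 values under an alternative, 129 kept their direction and their side of the threshold, or stayed within 1.5 times of a count. The differences far minus near and dense minus sparse kept their sign under every alternative run, but not their size. Medians in place of means gave 80.4 against 37.7 for far minus near, 37.6 against 19.9 at matched density and -85.8 against -56.3 for dense minus sparse, and a gap of 500 bp gave -18.8 against -29.7 for the share of clusters under 10%. With 1 library left out they ranged from 37.6 to 38.1 percentage points for far minus near, 19.916 to 19.997 at matched density, -57.3 to -56.0 for dense minus sparse and -29.8 to -29.5 for the share of clusters under 10%, and lost significance because 5 libraries cannot give an exact sign-flip p under 0.062. With masked sites left out, which was added after seeing the data, dense minus sparse was -56.6.

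The housing difference of far sites ranged from -2.13 to 0.789 with 1 library left out, that of the share of clusters under 10% from -0.596 to 2.01, and that of far minus near from -0.976 to 0.335. The last was 0.797 with medians in place of means, a reversal whose cause was not tested. Among libraries left out, each reversal came without ENR replicate 3 while STD replicate 3 was kept. With replicate 3 of both groups left out, chosen after seeing the data, the 3 differences were -0.283, 0.447 and -0.116, in the direction of all 6 libraries.

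The count of 391 unmethylated clusters became 223 with a limit of 5%, 689 with 20%, 163 with at least 10 sites, 739 at 10 kb, 121 at 50 kb, 600 with protein-coding and lncRNA-class records alone, and 253 with every library under 10%. The 1978 far sites over 25 percentage points became 3766 over 20, 255 over 40, 3032 at 10 kb, 764 at 50 kb, and 850 with groups that do not overlap, an alternative chosen after seeing the data. With 1 library left out they ranged from 2386 to 3645 (3645 without ENR replicate 1, 3226 without ENR replicate 2), and their share lower in ENR from 42.5% to 77.5%. Calls of sites and clusters stayed at 0 throughout, although the lowest adjusted limma p of far clusters fell to 0.114 without the variance trend.

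Over all sites, same-numbered STD and ENR libraries correlated at 0.060, 0.035 and 0.135 in their deviations from the group means, and over far sites at 0.068, 0.036 and 0.123. Replicate 2 of both groups over all sites, and STD replicate 2 over far sites, correlated best with another number. Not every pair was over 0.1, so the numbers were not taken to pair the mice. With the replicate block the far difference was -1.05 (exact sign-flip p = 0.25, the smallest 3 pairs allow) and calls stayed at 0. The unknown read number per site limits the precision of every single value.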
